A study of Mus musculus with 4 samples.

Results

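The platelet-derived growth factor (PDGF) family of the mouse was followed here through its 6 classical members: the receptor genes Pdgfra and Pdgfrb and the ligand genes Pdgfa, Pdgfb, Pdgfc and Pdgfd. Every probe whose gene name or RefSeq-matched symbol is one of these was taken, which gave 12 probes on 21 spots of each array. The arrays held 41146 probes with a value on every array, under 26793 gene names. The rule names the genes and uses no measured value.

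The RNA came from IMS/N, a cell line made from liver stellate cells of normal 129/Sv mice with SV40 virus. There were 4 conditions with 1 array each. The control was IMS/N alone. The PA condition received palmitic acid, a saturated fatty acid, and the ADSC medium condition received medium in which adipose tissue-derived stem cells had been cultured. The last condition received both. The stem cells came from inguinal fat of male C57BL/6J mice aged 8 to 10 weeks. All 4 conditions share the immortalized line, so none of them shows freshly isolated stellate cells. The dose and time of PA, its vehicle, and the medium given to cultures without ADSC medium are details the labels do not state. Effects of ADSC products and of a change of medium therefore cannot be told apart. The question, per the series title, was whether ADSCs can restore IMS/N cells that PA has activated.

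PDGFs are dimeric growth factors that act through a pair of receptor tyrosine kinases. PDGF-A and PDGF-C chains bind mainly the alpha receptor, PDGF-B binds both receptors, and PDGF-D acts mainly through the beta receptor. Ligand binding pairs the receptors, which then phosphorylate each other and recruit PI3-kinase, phospholipase C-gamma, SHP2 and RAS adaptors. In the liver the beta receptor is a hallmark of stellate cells, and PDGF-BB is a classical mitogen and chemoattractant of activated stellate cells. PDGF-C and PDGF-D are secreted in latent form and need proteolytic cleavage, by tissue plasminogen activator and urokinase among others.

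The arrays read each transcript through 60-base probes, and the letters of those that carry the results are given for orientation. The first 3 lie in coding stretches, and the last 2 are the first 30 bases of the probes that represent Pdgfra and Pdgfc. All are written 5′ to 3′ in the sense of the transcript, and none has capitals because no part is singled out.
Pdgfra, extracellular domain: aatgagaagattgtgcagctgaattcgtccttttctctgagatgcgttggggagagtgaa
Pdgfa, coding part: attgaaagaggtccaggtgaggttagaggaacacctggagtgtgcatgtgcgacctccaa
Pdgfd, coding part: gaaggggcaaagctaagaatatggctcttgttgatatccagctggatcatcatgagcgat
Pdgfra, start of the representing probe: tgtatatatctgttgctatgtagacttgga
Pdgfc, start of the representing probe: aaatatggagccattgctaacctacccctt

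On mouse build mm9, per the array annotation, these probes lie at chr5:75559613-75559672, chr5:139455132-139455191, chr9:6376926-6376985, chr5:75593888-75593947 and chr3:81017572-81017631 in that order. The 2 Pdgfa and 2 Pdgfb probes are on the minus strand and all others on the plus strand. The exon or UTR status of the remaining probes was not analysed here, because no mm9 gene annotation was used. The Pdgfrb gene is read by 1 probe on 1 spot (chr18:61244595-61244654, plus strand).

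Levels are given as quantile-normalized log2 of the scanner's background-corrected signal, so 1 unit is a 2-fold step. A level belongs to its probe and is compared between arrays only. Between 67.6% (control) and 70.0% (PA) of probes were well above background, a flag of the scanner software, and no spot was saturated. The 75th percentile of the raw processed signal was 495 (control), 622 (PA), 497 (ADSC medium) and 542 (both). With 1 array a condition there is no spread between cultures, no test and no p-value. Each difference describes a pair of arrays. The scanner software gave an error for each signal, which was 10.0% for the Pdgfrb probe on every array and larger for dim probes. The SDs given here do not use it. The error used here is that of repeated spots within an array. From 245 probes printed on 10 spots, it corresponded to an SD of 0.059 for a difference of single spots at levels of 11 to 13, and of 0.23 at levels of 3 to 5.

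The label of the cells was set against 22 stellate or mural markers, of which 14 were well above background on all 4 arrays. They included Des, Acta2, Vim, Col1a1, Col1a2, Lhx2, Ngfr, Cygb and Pdgfrb itself. Lrat, Reln, Rgs5, Hgf, Hand2, Gfap, Colec10 and Bmp10 were not well above background on any array. Alb, Apoa1 and Ttr of hepatocytes, Ptprc, Adgre1 and Clec4f of macrophages, Pecam1 and Cdh5 of endothelium, Epcam and Cdh1 of epithelium, and Adipoq and Plin1 of adipocytes were likewise not well above background on any array. Other markers of these lists were well above background on all 4 arrays. Hepatocytes had 4 of 10 such markers and macrophages 4 of 10. Endothelium had 5 of 10, biliary or epithelial cells 5 of 8, and adipose stroma or adipocytes 6 of 10. Mesothelial cells or portal fibroblasts had 5 of 10, namely Msln, Thy1, Entpd2, Fbln2 and Eln. These counts alone do not tell stellate cells from portal fibroblasts. In bulk RNA, fewer cells of a type and less RNA per cell cannot be told apart.

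The largest difference in the family was that of a receptor in PA against control, ADSC medium against control, and both treatments against PA. In both against ADSC medium (-0.37) and both against control (-0.60) it was that of the ligand Pdgfc. Pdgfrb, the receptor of PDGF-BB, was lowest in the PA array and highest when PA and ADSC medium were given together. Its level was 12.39 in control, 11.46 with PA, 12.74 with ADSC medium and 12.78 with both. The processed signals before normalization were 4982, 3265, 6380 and 7118 in the same order. The PA array thus had the lowest Pdgfrb signal although its 75th percentile was the highest of the 4. PA against control gave a log2 difference of -0.93 (1.91-fold lower), against a spot SD of 0.059. Of 18213 genes compared, 136 had a lower value in that comparison.

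ADSC medium alone went with a Pdgfrb difference of 0.35 from control, 1.27-fold higher. ADSC medium in the presence of PA went with a difference of 1.33 from PA alone, 2.51-fold higher, where 180 of 18756 genes had a higher value. The same medium contrast was thus 0.35 on one pair of arrays and 1.33 on the other. With both treatments the level was 0.39 above control and 0.04 above ADSC medium alone, the latter within the spot SD. These comparisons share arrays, so the PA array enters both of the large values, and no second spot or probe of Pdgfrb is there to check it.

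Pdgfra, the alpha receptor that marks fibroblasts and stellate cells among other mesenchymal cells, had the same order for control and PA but was highest with ADSC medium alone. Its representing probe was printed on 10 spots and averaged 7.32 ± 0.04 in control, 6.91 ± 0.05 with PA, 7.90 ± 0.05 with ADSC medium and 7.69 ± 0.04 with both (SD over 10 spots of 1 array). The spots ranged from 7.27 to 7.39, 6.86 to 7.01, 7.83 to 7.99 and 7.65 to 7.79. No spot range overlapped that of another array. Spots of 1 array share its RNA, so this describes the reading of the probe and not the conditions.

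PA against control gave -0.40 for Pdgfra (1.32-fold lower), and all 10 spots were lower, by between 0.33 and 0.45. ADSC medium against control gave 0.59, a value on the 1.5-fold line itself, and it was 0.58 with scaling to the 75th percentile and 0.44 with another background correction (normexp). Both treatments against PA gave 0.78 (1.71-fold higher), with spots between 0.70 and 0.85. Both treatments against ADSC medium gave -0.21, with all 10 spots lower, and both against control gave 0.37.

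The second Pdgfra probe lies 34.3 kb away in the coding part for the extracellular domain and was dim. Its level was 1.94 in control, not well above background, then 2.29 with PA, 2.75 with ADSC medium and 2.80 with both. A probe below background on 1 array of a pair gives only a bound, the brighter level against the lowest level well above background on the dim array. By that rule the second probe exceeded control by at least 1.25-fold on the ADSC medium array. It exceeded control by at least 1.29-fold on the array with both. It gave no bound for PA against control, where the main probe was lower. On the log2 scale the bounds for ADSC medium and for both were 0.32 and 0.37, below the spot SD of 0.41 at this level. With normexp background each of them fell to 1.07-fold.

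**Figure D1:**
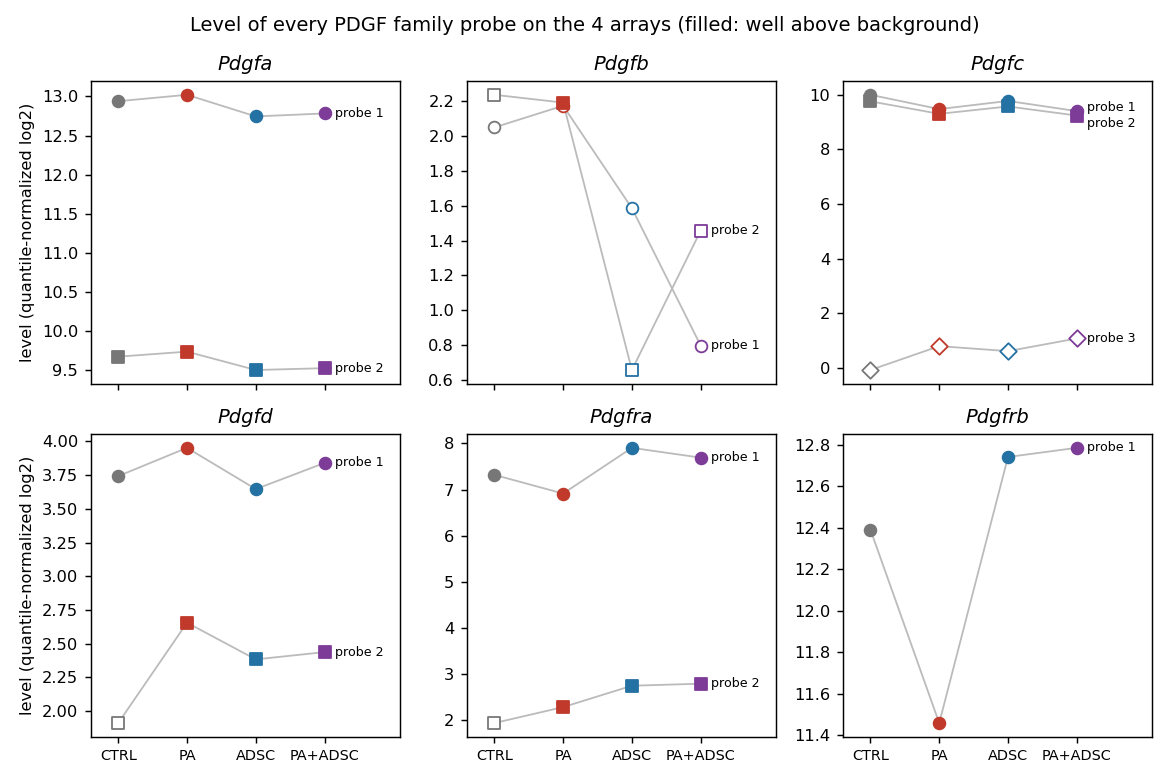
Quantile-normalized log2 level (y axis, a separate scale in each panel) of all 12 probes of the 6 genes on the control (CTRL), PA, ADSC medium (ADSC) and both (PA+ADSC) arrays (x axis); filled symbols were well above background, open symbols were not, and lines only join the values of a probe. Pdgfrb lies at 11.46 on the PA array and at 12.74 and 12.78 on the arrays with ADSC medium, while both Pdgfb probes are near background.

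**Figure D2:**
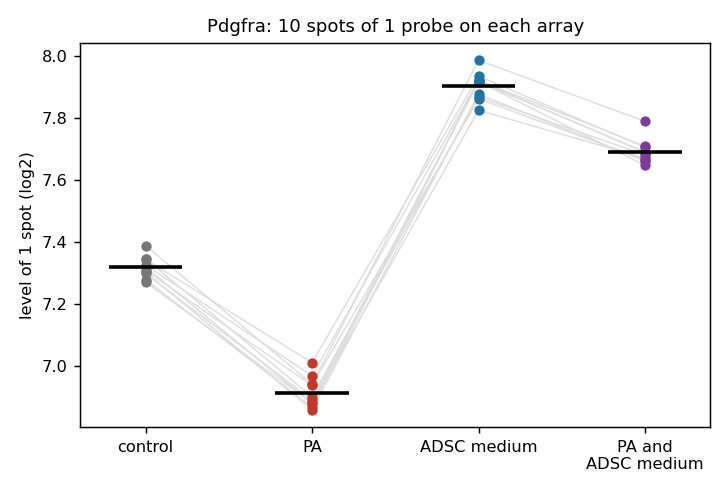
Log2 level (y axis) of the 10 spots of the representing Pdgfra probe on each of the 4 arrays (x axis); points are spots, grey lines join the same spot position and black bars are means. The spots of the PA array lie between 6.86 and 7.01 and those of the control array between 7.27 and 7.39, with no overlap between any arrays.

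Among the ligands, Pdgfc was lower with PA than without it, both in the absence and in the presence of ADSC medium. With ADSC medium alone it was also below control, by less than with PA alone. Pdgfa and Pdgfd differed little. Pdgfc encodes a ligand of the alpha receptor that carries an N-terminal CUB domain. Its level was 9.99 in control, 9.47 with PA, 9.77 with ADSC medium and 9.40 with both. PA against control gave -0.52 (1.44-fold lower), and both treatments against ADSC medium gave -0.37 (1.29-fold lower). ADSC medium against control gave -0.22 (1.17-fold lower). Both against control gave -0.60 (1.51-fold lower), which missed 1.5-fold at -0.58 with scaling to the 75th percentile. The spot SD at this level was 0.067. A second Pdgfc probe read 9.75, 9.29, 9.56 and 9.23 and went the same way in every comparison. It starts 153 bases before the first, with 93 bases between them. The third Pdgfc probe, designed to another transcript (chr3:81014382-81014441), was not well above background on any array.

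Pdgfa, whose homodimer is the classical alpha-receptor ligand, was bright and varied little. Its level was 12.94 in control, 13.02 with PA, 12.74 with ADSC medium and 12.78 with both. The arrays with ADSC medium were thus slightly below the others, by 0.19 against control and by 0.24 in the presence of PA, each beyond the spot SD of 0.059. The scanner software's error of each of these signals was 10.0%, which this SD does not use. The second Pdgfa probe, in the coding part, read 9.67, 9.74, 9.50 and 9.53 and showed the same order of arrays. Its differences were -0.17 and -0.21 in these comparisons.

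Pdgfd, a ligand that acts mainly on the beta receptor, was dim. Its level was 3.74 in control, 3.95 with PA, 3.65 with ADSC medium and 3.84 with both. In the 5 comparisons no difference exceeded 0.21, and the spot SD of a difference at this level was 0.23. The highest and lowest arrays, PA and ADSC medium, which form none of these comparisons, lay 0.31 apart. Its coding probe read 1.91, not well above background, in control, then 2.66, 2.38 and 2.44. That was at least 1.17-fold higher with PA than in control, at a level where the spot SD was 0.41.

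Pdgfb encodes the B chain, which as a homodimer is a potent mitogen of stellate cells. Its representing probe was not well above background on any array, and Pdgfb therefore has no difference here. A second probe (chr15:79827138-79827197) was well above background only on the PA array, with processed signals of 4.22 in control, 5.09 with PA, 1.60 with ADSC medium and 2.91 with both. After normalization its levels were 2.24, 2.19, 0.66 and 1.46 in the same order, so PA was not above control. The value with PA was at least 1.06-fold higher than with both treatments, at a level where the spot SD was 0.41 on the log2 scale. This bound was not reached with scaling to the 75th percentile. That probe is also the only one of the 12 named in the authors' deposited lists. It stands in their list of 920 probes higher with PA than with PA and ADSC medium, and no probe of the 6 genes stands in their list of 1580 probes higher with PA than in control. The lists give no values, and their threshold is not stated in the labels.

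For 5 of the 6 members a difference could be measured in every comparison, and 1.5-fold was taken as the line for a count. PA against control placed 0 members higher and 1 lower (Pdgfrb), where 6.19% of 18213 genes passed the line in either direction, 2.92% higher and 3.28% lower. ADSC medium against control placed 1 member higher (Pdgfra) and 0 lower, beside 3.59% of all genes in either direction, 2.3% higher and 1.29% lower. Both treatments against PA placed 2 members higher, the 2 receptors, and 0 lower, beside 8.98% of all genes in either direction, 5.25% higher and 3.73% lower. Both against ADSC medium placed 0 members past the line, beside 6.67% of all genes in either direction, 3.54% higher and 3.13% lower. Both against control placed 0 higher and 1 lower (Pdgfc), beside 8.36% in either direction, 4.68% higher and 3.68% lower. At 2-fold, where Pdgfrb in both against PA was the only member past the line, the shares of all genes in either direction were 1.69%, 0.654%, 2.26%, 1.73% and 2.23% in the same order. With 5 members, each count moves by 1 with a single gene. The median over the 5 members was -0.40, -0.10, -0.07, 0.04 and 0.10 in this order, and that over all genes was between -0.02 and -0.01 in each comparison.

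**Figure D3:**
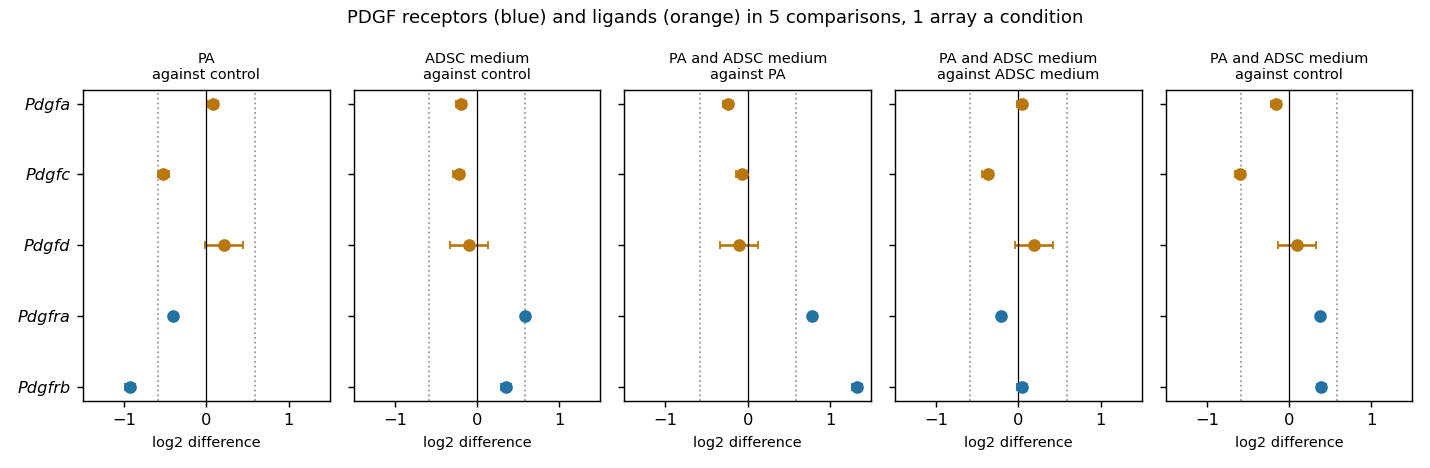
Log2 difference (x axis) of the 5 measurable PDGF genes (y axis) in the 5 comparisons, receptors in blue and ligands in orange; bars are ± 1 SD of a difference from repeated spots, not between cultures, and dotted lines mark 1.5-fold. Pdgfrb lies at -0.93 for PA against control and at 1.33 for both treatments against PA, while Pdgfa and Pdgfd stay inside the dotted lines throughout.

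How far the effects of PA and of ADSC medium added up was described by the PA difference with ADSC medium minus the PA difference without it. For Pdgfrb these differences were 0.04 and -0.93, which left 0.97 on the log2 scale, a 1.97-fold gap, against a spot SD of 0.084. Among 17358 genes, 167 had a larger value, and 3.92% were at least 1.5-fold above the additive value, 2.78% below it and 6.71% either way. Pdgfra gave 0.19 and Pdgfc 0.15, while Pdgfa gave -0.04 and Pdgfd -0.02. Of the 5 members, Pdgfrb alone passed 1.5-fold. With 1 array a condition this gap uses all 4 arrays once, so it has no error between cultures.

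The receptors and the markers of other cell types were read on the same arrays. A summed level here is the log2 of the sum of the markers' normalized signals, so the brightest markers weigh most. The summed level of the 10 adipose stromal or adipocyte markers, 6 of them well above background on all arrays, was 13.86 in control and 13.80 with PA, and 14.35 and 14.39 with ADSC medium without and with PA. The 10 macrophage markers, of which 4 were above background, summed to 9.70, 9.64, 10.21 and 10.40 in the order control, PA, ADSC medium, both. The 8 biliary or epithelial markers, of which 5 were above background, summed to 11.19, 11.06, 12.17 and 12.50. Endothelial markers summed to between 9.85 and 10.41 and hepatocyte markers to between 6.80 and 6.99. The 10 mesothelial or portal fibroblast markers summed to between 16.62 and 16.70. The 21 stellate or mural markers other than Pdgfrb summed to 17.60, 17.53, 17.44 and 17.41. Several of these sums were higher on the arrays with ADSC medium, as were both receptors, and their part in the receptor values was not tested.

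The genes whose profile over the 4 arrays lay nearest that of Pdgfrb were Tnxb, Olfm1, Dap, AK035243 and Aqp5, in order of likeness. Likeness was the root mean square gap between profiles centred on their mean, over 4 arrays and 835 genes that spanned at least 1 log2 unit, and it was 0.063 for Tnxb and 0.086 for Aqp5. Tnxb, which encodes the matrix protein tenascin-X, read 7.90 in control, 7.09 with PA, 8.38 with ADSC medium and 8.46 with both. Aqp5, a water channel, read 7.82, 6.81, 8.34 and 8.24. With 75th percentile scaling 4 of these 5 genes were named again, and with normexp background 2 of 5. With 4 arrays such likeness is a description of these arrays only. No other member that was well above background on all arrays spanned 1 log2 unit. Pdgfra spanned 0.99. It passed 1 log2 unit with 75th percentile scaling, where the nearest profiles were those of Il34, Pnmal2, Prrx1, Clca3a1 and AK134371.

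**Figure D4:**
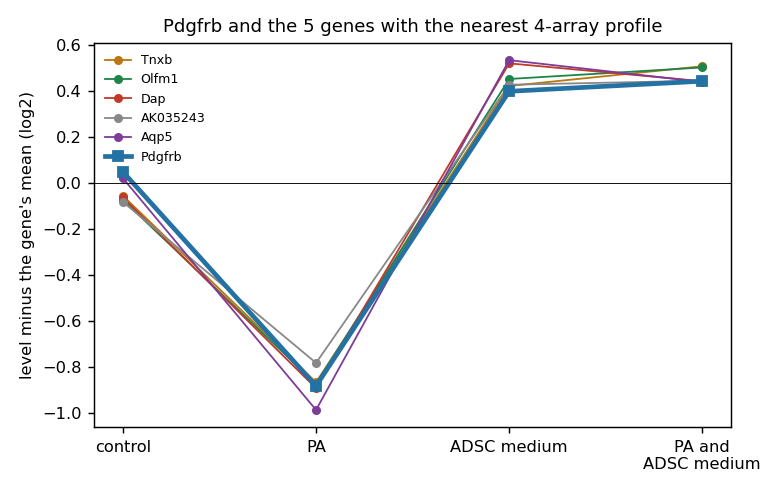
Log2 level minus the gene's mean (y axis) on the 4 arrays (x axis) for Pdgfrb (thick blue line, squares) and the 5 genes with the nearest profiles (circles). All 6 are lowest on the PA array and lie above their mean on both arrays with ADSC medium.

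The other genes of the pathway were grouped by role, and each group is described by its counts past 1.5-fold and its median. Beside these counts stand the shares of all genes given above. For PA against control they were 2.92% higher and 3.28% lower, and for both treatments against PA 5.25% higher and 3.73% lower. For ADSC medium against control they were 2.3% higher and 1.29% lower. Both against ADSC medium had 3.54% higher and 3.13% lower, and both against control 4.68% higher and 3.68% lower. Among 12 relatives of the receptors and ligands, 11 could be compared. PA against control placed 0 of 11 higher and 3 lower, beside 3.28% of all genes lower, with a median of -0.09 beside -0.01 over all genes. The lower ones were Csf1r, a related receptor kinase (-0.78, but -0.18 with normexp background), Pdgfrl, a PDGF receptor-like gene (-0.65), and Vegfd (-0.61), a growth factor of the wider PDGF and VEGF family. Vegfd read 12.76 in control and 12.15 with PA, and 12.74 with both treatments. Both against PA placed 3 of 11 higher and 0 lower, namely Pgf (0.72), Vegfc (0.67) and Vegfd (0.59), with a median of 0.18 beside -0.02. Pgf encodes placental growth factor, and its difference was 0.49 with normexp background. Both against control placed 1 of 11 higher, Pgf (0.69), and 1 lower, Flt3, another related receptor kinase (-0.62, but -0.13 with normexp background). ADSC medium against control, and both against ADSC medium, placed 0 of 11 past the line.

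Of 12 genes of ligand processing, 9 could be compared. PA and ADSC medium, each against control, placed 0 of 9 past the line. Both treatments against PA placed 2 of 9 higher and 0 lower, with a median of 0.26. Plat encodes tissue plasminogen activator, which cleaves latent PDGF-C. It read 11.84 in control, 11.50 with PA and 12.72 with both, so that both against PA gave 1.21 (2.31-fold higher). Serpinf2, the plasmin inhibitor, gave 0.63, and 0.32 with normexp background. Plau, the urokinase that activates PDGF-D, gave 0.26. Both against control placed 1 of 9 higher, Plat (0.87), and both against ADSC medium 0 of 9.

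Of 12 co-receptors and extracellular binding partners, 11 could be compared. PA against control placed 0 of 11 past the line, with 8 of 11 lower by any amount and a median of -0.22, which was -0.12 with normexp background. ADSC medium against control placed 1 of 11 higher, beside 2.3% of all genes higher. That gene was Dcn, which encodes the proteoglycan decorin (0.76, and 0.54 with normexp background). Both treatments against PA placed 2 of 11 higher, Nrp2 (0.89) and Dcn (0.72), with a median of 0.23, which was -0.05 when all detected probes of a gene were averaged. Both against ADSC medium and both against control placed 0 of 11 past the line. Nrp2 encodes neuropilin 2.

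Few genes of the signalling machinery downstream of the receptors passed the line, as few of all genes did. Of 26 receptor-proximal genes, PA against control placed 1 lower, beside 3.28% of all genes lower, with a median of -0.05. That gene was Pik3r2, a regulatory subunit of PI3-kinase, with a log2 difference of -0.70. Both treatments against ADSC medium again placed Pik3r2 past the line, at -0.78. Both against PA placed 1 of 26 higher, beside 5.25% of all genes higher. It was Rasa1 (0.85), a GTPase-activating protein for RAS that binds the beta receptor, and Rasa1 gave 0.72 in both against control. The genes for Grb2, Src, Plcg1 and Ptpn11 differed by no more than 0.21 in any comparison. Of 16 genes of the RAS-MAPK and AKT cascade, 0 passed 1.5-fold in any of the 5 comparisons, where medians lay between -0.08 and 0.05. Beside this stand 3.59% to 8.98% of all genes in either direction. With only 16 genes, a count of 0 lies near such shares and sets the cascade apart from other genes in no comparison.

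Negative regulators of receptor signalling were higher on the arrays with ADSC medium in several cases. Of 19 compared, ADSC medium against control placed 2 higher and 0 lower, beside 2.3% of all genes higher, with 16 of 19 higher by any amount and a median of 0.14. Errfi1, a feedback inhibitor of receptor kinases, gave 0.82 and Dusp6, an ERK phosphatase, gave 0.71. Both treatments against PA placed 4 of 19 higher and 0 lower, beside 5.25% of all genes higher, with a median of 0.17. Errfi1 gave 0.87, Dusp1 0.81 and Dusp6 0.62. Both against control placed 2 of 19 higher, Dusp6 (0.91) and Spry2 (0.75, but 0.42 over all its detected probes). PA against control placed 0 of 19 past the line, with a median of -0.03. Both against ADSC medium placed Spry1 lower (-0.63) and 0 higher.

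Early genes that PDGF is known to induce were the group with the most members past the line when both treatments were given. ADSC medium against control placed 3 of 25 higher and 0 lower, beside 2.3% of all genes higher, with a median of 0.13. They were Egr2 (1.27), Nr4a1 (0.71) and Ier3 (0.62). Both against PA placed 7 of 25 higher and 0 lower, beside 5.25% of all genes higher, with a median of 0.30 beside -0.02 over all genes. Ier3, an early response gene, read 11.17 in control, 11.14 with PA, 11.79 with ADSC medium and 13.53 with both, and gave 2.40 (5.28-fold higher). Nr4a1, an orphan nuclear receptor, gave 1.72 and Egr2, a zinc finger factor, gave 1.21. Both against ADSC medium placed 7 of 25 higher, beside 3.54% of all genes, led by Ier3 (1.75), Atf3 (1.17) and Ccl2 (1.16). Both against control placed 9 of 25 higher, beside 4.68% of all genes. PA against control placed 2 higher, Atf3 (0.88) and Egr1 (0.87), and 1 lower, Egr3 (-0.75, but -0.16 with normexp background). Many agents other than PDGF induce these genes, so their counts do not read PDGF signalling.

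Of 22 transcription factors described at PDGF ligand or receptor genes, 21 could be compared in PA against control and 20 in ADSC medium against control. PA placed 1 of 21 higher, Egr1, and ADSC medium 0 of 20. Both treatments against PA placed 2 of 21 higher and 0 lower. Prrx1, a homeobox gene of mesenchymal cells, read 10.40 with PA and 11.34 with both, a difference of 0.94. Hif1a, the oxygen-regulated subunit of HIF-1, gave 0.87. Both against control placed 3 of 20 higher and 0 lower, beside 4.68% of all genes higher. They were Egr1 (1.12), the forkhead factor Foxc2 (0.67) and Hif1a (0.62). Both against ADSC medium placed 1 of 20 higher, Egr1 (0.64, and 0.56 with normexp background).

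**Figure D5:**
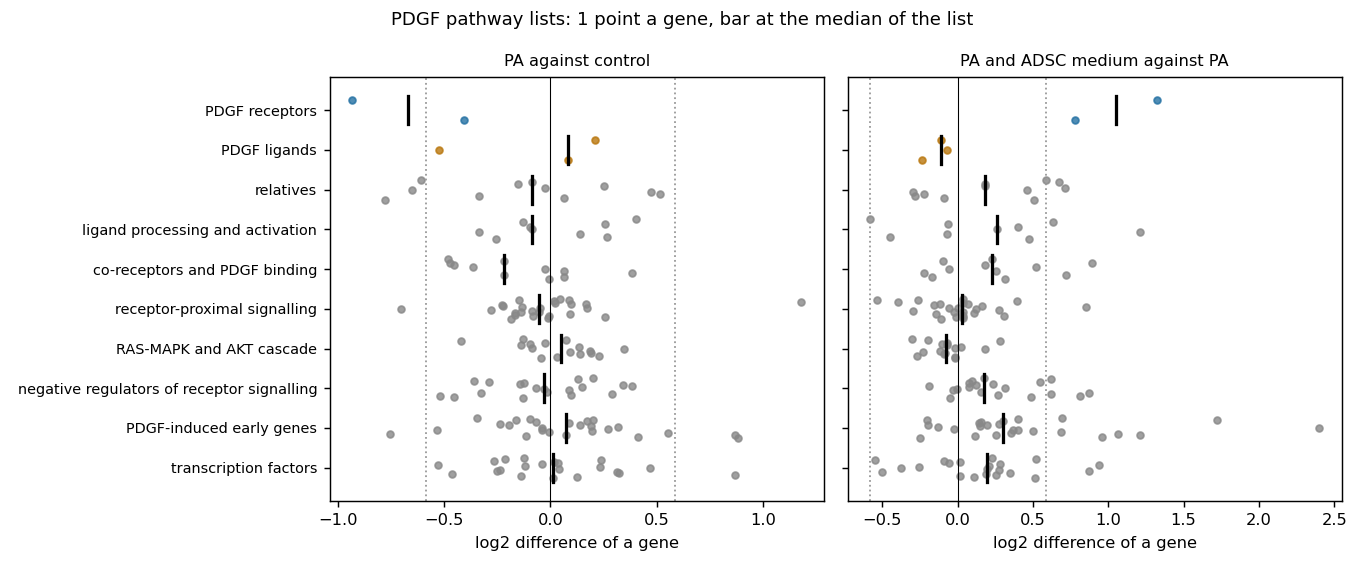
Log2 difference (x axis) of each gene of 10 groups (y axis; 1 point a gene, black bar at the group's median) for PA against control (left) and both treatments against PA (right); dotted lines mark 1.5-fold, and the 2 panels share the PA array. The receptors lie left of the other groups' medians in the left panel and right of them in the right panel, and the cascade genes stay inside the dotted lines in both.

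Promoter sequence was at hand for 4 of the 6 members, from RefSeq on build GRCm38.p6, over the 250 bases before a gene start. Pdgfa has 2 such windows, and its known GC-rich promoter is shown by the stretch from 102 to 73 bases before one of its starts (chr5:138995017-138995046, minus strand), where capitals mark matches to the Sp-family motif GGGCGG on the other strand.
Pdgfa promoter stretch: gcccagcccCCGCCCtCCGCCCcttccgtc
GGGCGG was searched on both strands and occurs in 32.7% of 32851 such windows. In the windows of the 6 genes it was found in both Pdgfa windows and in none of those of Pdgfc, Pdgfd and Pdgfra. The TATA box motif TATAAA, present in 12.4% of windows, was found 160 bases before the start of Pdgfd. The motifs CCAAT (33.8% of windows), GCGTGGGCG of Egr1 (0.536%), an interferon element core (2.98%) and an NF-kB motif (0.140%) were searched on both strands and not found in these windows. A match is a description of letters, and a missing match says only that these letters are not in that window.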

How the data were processed

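Cy3-labelled total RNA of IMS/N cells was hybridized to Agilent design 014868, with all 4 arrays on 1 slide. Feature Extraction (version 12.1.1.1, protocol GE1_105_Dec08) read the arrays, per the file headers. Used here was the deposited processed signal of each spot, an intensity that the authors' scanner software had corrected for background, per the file headers. The authors used quantile normalization, per the series' design text, and R 3.5.1, per the submitters' processing notes.

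Control spots and spots flagged as outliers (82 to 104 an array) were left out. Signals were taken to log2, averaged per probe and quantile-normalized with limma 3.58.1 (R 4.3.3, with data.table at version 1.17.8), and 28 of 41174 probes without a value on every array were dropped. Further steps used Python 3.11.15, numpy 2.4.6, pandas 2.3.3 and matplotlib 3.10.9. A probe was well above background when over 50% of its spots were so flagged. The probe with the highest mean stood for a gene. The lowest levels well above background, used for bounds, were 2.43 (control), 2.07 (PA), 2.30 (ADSC medium) and 2.11 (both). Named from each list were up to 3 genes a comparison with the largest difference past 1.5-fold, and 5 genes nearest in profile to a member that spans 1 log2 unit. Plau, Grb2, Src, Plcg1 and Ptpn11 were named after their values were seen. One result of the receptor-proximal list is not reported here. The script was tested on simulated data. Members and lists were chosen with earlier results of these data known. Alternatives were 75th percentile scaling, normexp background (offset 50), the mean of detected probes, no filter on dim probes, outlier spots kept, and 2-fold.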

Additional observations from a re-analysis of the deposited data

Results flagged for a closer look

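The PA difference of Pdgfrb had opposite signs without and with ADSC medium. It was -0.93 on the log2 scale for PA against control and 0.04 for both treatments against ADSC medium. The difference between these values was not tested, since each rests on 1 array a condition, and the second value lies within the spot SD of 0.059.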

How the results depend on the processing

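No paired analysis was possible because each condition has 1 array, and for the same reason no replicate could be left out. At 2-fold, the members past the line were 0 for PA against control, 0 for ADSC medium against control, 1 (Pdgfrb) for both treatments against PA and 0 for both against control. For ADSC medium against control, and for both against control, the count of 1 became 0 with 75th percentile scaling, 0 with normexp background and 0 with the mean of detected probes. These counts rest on Pdgfra and Pdgfc, which lay close to the line. Without the filter on dim probes, both against PA gave 3, both against ADSC medium gave 1 and both against control gave 2, because the representing Pdgfb probe, not well above background on any array, then entered. With normexp background 2 of the 5 genes nearest Pdgfrb in profile were named again. Of 125 differences of single members recomputed under alternatives, 123 kept their sign. The exceptions were Pdgfd for both against PA (0.01 with 75th percentile scaling, -0.11 in the main setting) and for both against control (-0.01 with normexp background, 0.10 in the main setting). Of 25 that were past 1.5-fold, 25 kept their sign and 19 stayed past it. Both tallies include values that could not differ from the main setting. Without the filter on dim probes, every member compared had its main values. For Pdgfrb, with only 1 probe, the mean of detected probes was also the main value. Keeping outlier spots hardly moved any value. The Pdgfrb gap from additivity was 0.97 in the main setting, 0.98 with 75th percentile scaling and 0.99 with normexp background. The number of arrays limits every value, and dim probes (Pdgfb, Pdgfd, the second Pdgfra probe) lie near background.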
